A study of Mus musculus with 14 samples.

Results

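The transcripts of 10 genes used to describe tumor macrophages were followed in 14 mouse mammary tumors. They are Adgre1, Csf1r, Cd68, Mrc1, Cd163, Marco, Trem2, Arg1, Nos2 and Spp1, that is 10 of the 56414 genes listed in the deposited expression table. The genes were taken by symbol, and each symbol matched 1 gene. The row of Csf1r is shared with the microRNA gene Mir6983.

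On the mm10 assembly the genes lie on 8 chromosomes. Adgre1 (GSMG0016842) spans chr17:57358686-57483529 and Trem2 (GSMG0016770) chr17:48346395-48354147. Cd68 (GSMG0006875, chr11:69664213-69666170, reverse strand) and Nos2 (GSMG0005604, chr11:78920787-78960226) share chromosome 11, without being neighbours. Mrc1 (GSMG0020688) spans chr2:14229414-14332027, Cd163 (GSMG0032457) chr6:124304651-124330527, Arg1 chr10:24915208-24927484 (GSMG0003908, reverse strand), Marco chr1:120474538-120505084 (GSMG0002006, reverse strand) and Spp1 (GSMG0029510) chr5:104435111-104441053, while Csf1r (GSMG0018463) is on chromosome 18. The longest protein-coding transcripts of Trem2, Cd68, Arg1 and Spp1 are short, at 1.088, 1.23, 1.477 and 1.507 kb. Marco is intermediate at 1.925 kb. Those of Adgre1, Nos2, Cd163, Csf1r and Mrc1 reach 3.238, 4.192, 4.443, 4.701 and 5.374 kb.

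Macrophages of a tumor come from circulating monocytes and from macrophages resident in the tissue. Their survival depends on CSF1R, the receptor for the growth factors CSF1 and IL34. Surface and lysosomal proteins such as F4/80 (encoded by Adgre1) and CD68 mark the lineage. The scavenger receptors encoded by Mrc1, Cd163 and Marco, the lipid-sensing receptor encoded by Trem2, and the secreted protein osteopontin (Spp1) vary with the state of the cells. Arginase 1 (Arg1) and inducible nitric oxide synthase (Nos2) use the same amino acid, arginine, and are widely taken as markers of alternative and classical activation, respectively. None of the genes is fully restricted to macrophages. Epithelial cells can make osteopontin, and neutrophils and other myeloid cells can express Arg1.

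Both models were grown in C57Bl/6 mice. M/D-driven tumors arose in the mammary gland of female mice that received a slow-release pellet of medroxyprogesterone acetate (MPA, a progestin) at 6 to 9 weeks of age, followed by repeated gavages of 7,12-dimethylbenz[a]anthracene (DMBA, a carcinogen). AT3 tumors came from subcutaneous injection of a mammary carcinoma cell line, so that all AT3 tumors share 1 line and their non-malignant cells come from the host. Mice were randomized at a tumor area of 0.25 cm2 and were either left untreated (4 M/D-driven and 3 AT3 tumors) or given nicotinamide (NAM, a form of vitamin B3) at 0.5% in the drinking water for 10 days (4 M/D-driven and 3 AT3 tumors). All M/D-driven tumors are of experiment 1 except NAM-treated tumor 1, which is of experiment 2, and all AT3 tumors are of experiment 3, so that model and experiment cannot be told apart.

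Polyadenylated RNA of each whole tumor was sequenced, with 40936868 to 84178009 reads counted per tumor. The values are normalized counts, that is reads per gene divided by a size factor of the tumor. In bulk tissue, fewer macrophages and less RNA of a gene per macrophage cannot be told apart. Nothing in the labels says more than that the tumors are separate samples of a group, and p-values measure the spread between these tumors. NAM-treated M/D-driven tumor 1 stood apart from the other M/D-driven tumors. Its summed level of 9 epithelial markers was 7364 (258421 to 970402 in the 7 others), and that of 7 markers of precursor B cells was 204706 (1094 to 1596 in the others). The transcripts of this library thus went against those of the other M/D-driven tumors, and whether its label is right was not tested. Results on the NAM-treated M/D-driven group are given with all 4 tumors and then without the library labelled tumor 1. The 18 genes of a list of macrophage and monocyte core genes summed to 194984 to 291300 in the other M/D-driven tumors, to 187511 in that tumor and to 84734 to 170917 in AT3 tumors, and 0 of these 18 genes were at 0 in any group.

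Promoter sequences are shown for Mrc1 and Cd163, which were called together in 3 comparisons below, for Spp1, which was called in the other direction in the same comparisons, and for Cd68 and Trem2, which were called in none. They are the RefSeq bases upstream of a gene start on GRCm38.p6, read 5' to 3' on the strand of the gene and stopped before the first exon in GENCODE. The last bases of the Trem2 window, with part of its AP-1 match, lie within the span given by the deposited annotation, which starts the gene earlier. Capitals mark 2 motifs, the core of the site of the myeloid factor PU.1 (GAGGAA, or TTCCTC on the other strand) and that of AP-1 (TGANTCA), which do not overlap each other here.
Mrc1, chr2:14229264-14229391, forward: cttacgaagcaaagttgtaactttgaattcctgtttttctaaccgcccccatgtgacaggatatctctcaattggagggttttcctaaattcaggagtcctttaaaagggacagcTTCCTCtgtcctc
Cd163, chr6:124304501-124304650, forward: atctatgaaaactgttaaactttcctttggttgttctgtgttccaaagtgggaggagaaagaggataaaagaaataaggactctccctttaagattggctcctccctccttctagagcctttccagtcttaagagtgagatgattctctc
Cd68, chr11:69666171-69666320, reverse: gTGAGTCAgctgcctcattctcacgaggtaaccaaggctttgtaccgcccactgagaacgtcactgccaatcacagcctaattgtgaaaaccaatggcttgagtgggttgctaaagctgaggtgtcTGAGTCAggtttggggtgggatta
Trem2, chr17:48346251-48346400, forward: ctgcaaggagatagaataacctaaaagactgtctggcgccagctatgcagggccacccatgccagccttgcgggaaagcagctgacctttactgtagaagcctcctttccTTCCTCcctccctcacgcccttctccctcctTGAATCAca
Spp1 (upstream of 2 annotated starts), chr5:104434961-104435110, forward: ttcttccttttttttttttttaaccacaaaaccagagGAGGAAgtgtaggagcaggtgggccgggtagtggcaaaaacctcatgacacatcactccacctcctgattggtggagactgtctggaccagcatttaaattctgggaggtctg

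Promoters were found for 6 of the 10 genes (7 starts), and Csf1r was left out of the search. The PU.1 core was present within 150 bases of 4 of these starts (Mrc1, Trem2, Marco and the upstream start of Spp1) and the AP-1 motif within 150 bases of 2 (Cd68 and Trem2). Across 32851 promoters of that length, 14.5% hold the PU.1 core and 4.24% the AP-1 motif. The window of Cd163 holds neither. Mrc1 and Cd163 thus differ in these letters, whereas a PU.1 core is found in both Mrc1 and Spp1. A match is only a match of letters, and these data do not show binding.

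Levels per kb of transcript, on a scale common to all tumors, ranked the genes differently in the 2 models. In untreated AT3 tumors Spp1 led at 48250.4 ± 12350.7 normalized counts per kb (mean ± SD, n = 3), ahead of Cd68 at 5001 ± 1209. Arg1 (1559.8 ± 750.2) and Trem2 (1270.3 ± 425.3) followed and did not differ beyond their spread, and Csf1r (421 ± 121), Mrc1 (202 ± 55.5), Adgre1 (119.7 ± 19), Nos2 (60.6 ± 17.1) and Cd163 (32.7 ± 7.91) were lower. In untreated M/D-driven tumors Spp1 (11437 ± 13497, n = 4) and Arg1 (10348 ± 8793) stood first with a spread as wide as their mean, followed by Cd68 (3759 ± 779) and Csf1r (3083 ± 187). Trem2 (1217 ± 449) and Mrc1 (1187 ± 395) could not be ordered, and Adgre1 (610.2 ± 133), Cd163 (168 ± 121) and Nos2 (120.2 ± 51.8) came next. Marco had the lowest mean in both models, at 27.6 ± 39.1 and 32.4 ± 52.7, but with a spread beyond its mean it could not be ordered against Cd163 and Nos2. On the scale of each model it exceeded Nos2 in untreated AT3 tumor 2 (63.3 against 41.4 per kb) and in untreated M/D-driven tumor 1 (114 against 85.0). Csf1r came close to Cd68 in M/D-driven tumors and lay far below it in AT3 tumors. Their transcripts are 4.701 and 1.23 kb long. The difference between the models went with transcript length, as given below, and the part of length in these ranks was not tested.

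**Figure D1:**
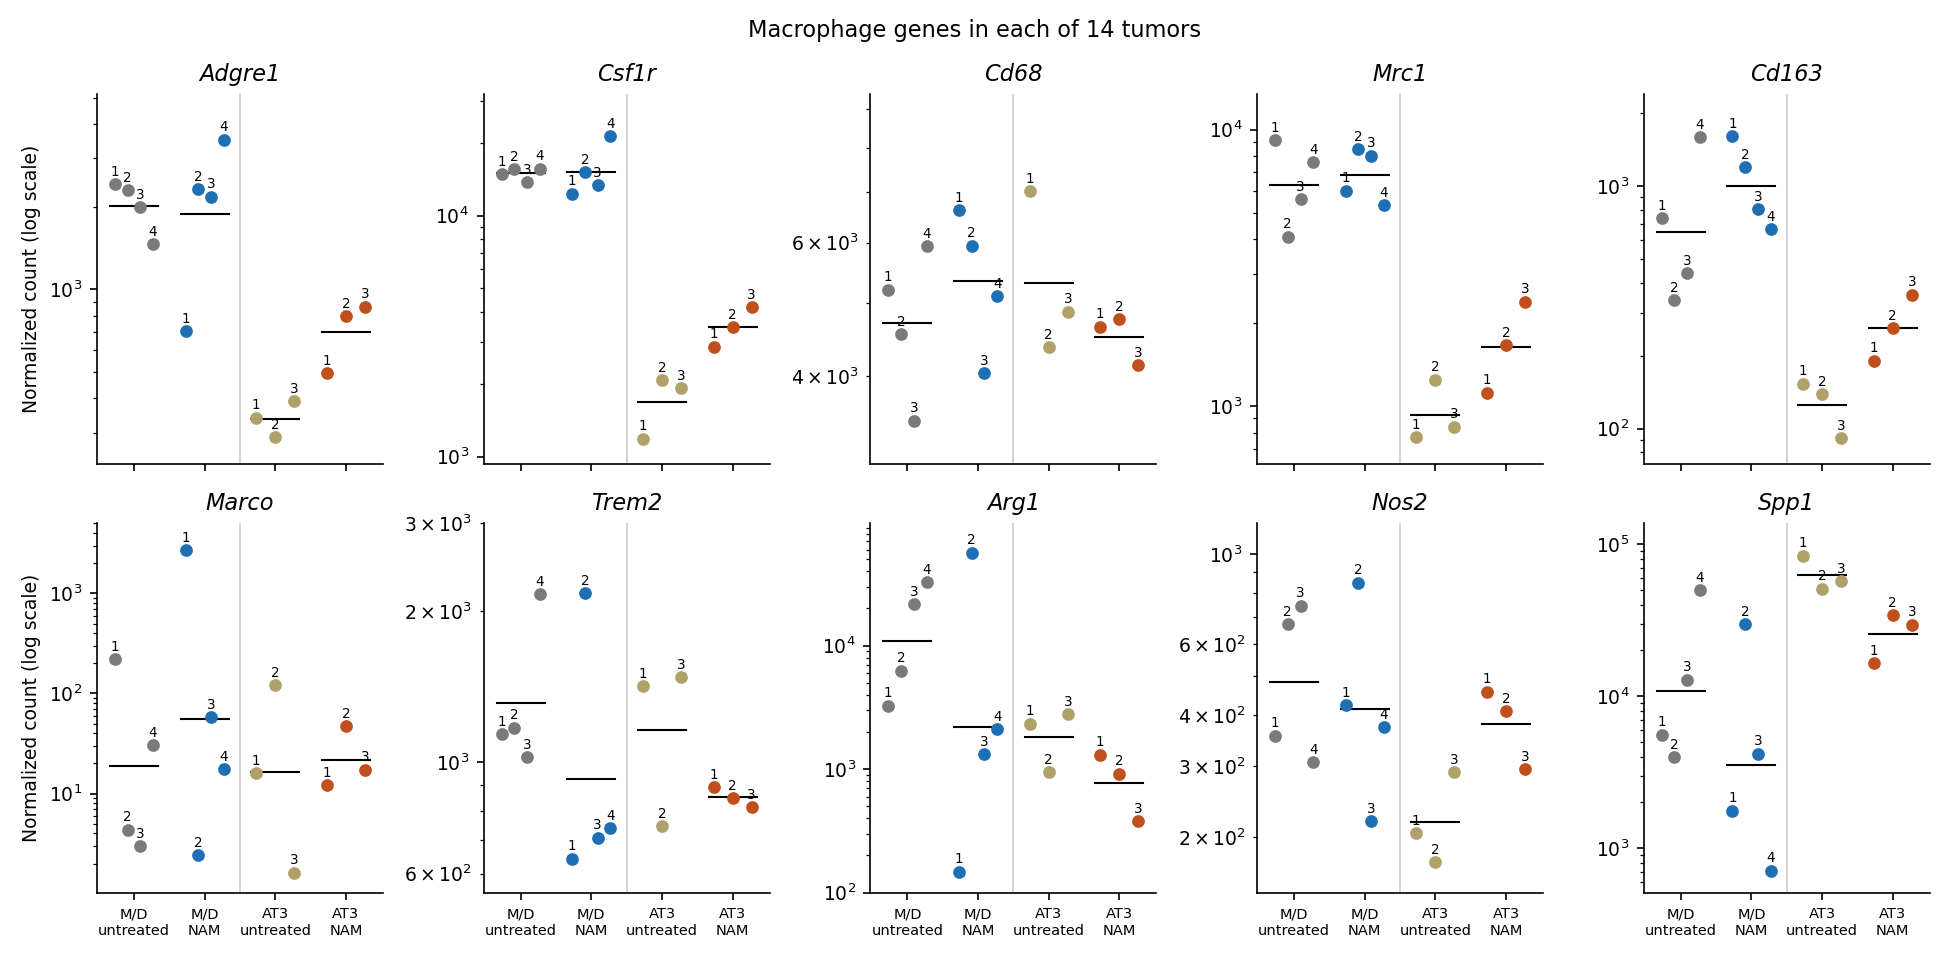
Normalized counts (log scale) of the 10 macrophage genes in each tumor. Numbers are replicate numbers, bars are means of the log values, and the vertical line separates the models, which the authors scaled apart. Csf1r lies between 12354 and 21425 in M/D-driven tumors and between 1188 and 4183 in AT3 tumors, whereas Cd68 overlaps throughout.

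The first comparison asks which macrophage transcripts differ between autochthonous M/D-driven tumors and transplanted AT3 tumors when neither is treated. Transcripts of 6 of the 10 genes were higher in M/D-driven tumors (Csf1r, Mrc1, Adgre1, Cd163, Arg1 and Nos2), that of Spp1 was lower, and those of Cd68, Trem2 and Marco did not pass the test. A gene was called where limma gave an unadjusted p not above 0.05 together with a change of 1.5-fold or more. By this rule 56.2% of the 21650 genes tested were called, 33.4% higher and 22.8% lower, so that a call as such was common. Under an adjusted p limit of 0.05, which 51.3% of all genes passed, 6 of the 10 genes remained.

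Csf1r showed the widest gap relative to its spread. Its normalized counts were 14882, 15650.0, 13767 and 15696 in untreated M/D-driven tumors and 1188, 2077 and 1929 in untreated AT3 tumors. The groups lay far apart, and the 4 M/D-driven tumors were nearly alike. On the common scale the mean was 14494 ± 877 (SD, n = 4) against 1978 ± 569 (n = 3), a difference of 2.92 ± 0.23 on the log2 scale (SE, adjusted p = 7.51e-05 in limma), or 7.55-fold.

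Adgre1, which encodes the F4/80 antigen, had 2412, 2296, 1992 and 1462 normalized counts in M/D-driven tumors and 341, 288 and 392 in AT3 tumors. The difference was 2.33 ± 0.24 (adjusted p = 0.000206), or 5.03-fold. Mrc1, the mannose receptor, had 9175, 4095, 5585 and 7610.4 in M/D-driven tumors and 769.5, 1243 and 840.0 in AT3 tumors, a difference of 2.53 ± 0.30 (adjusted p = 0.000376). Groups did not overlap for either gene, as for 53.9% of all genes (31.4% higher and 22.5% lower in M/D-driven tumors). Cd163, the hemoglobin scavenger receptor, was lower in level and wider in spread, with 739.6, 339, 439 and 1599.8 in M/D-driven tumors and 154, 139 and 91.2 in AT3 tumors (2.13 ± 0.50, adjusted p = 0.00815).

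The enzymes of arginine use overlapped between the models. Arg1 had 3266, 6269, 21626 and 32611 normalized counts in untreated M/D-driven tumors and 2330.3, 941 and 2796 in AT3 tumors (2.34 ± 0.77, adjusted p = 0.0311). Every M/D-driven tumor thus exceeded every AT3 tumor on the scale of each model, but the lowest M/D-driven tumor (3165) fell below the highest AT3 tumor (3232) on the common scale. The call of Arg1 was lost without AT3 tumor 2 (1.87) and with upper-quartile scaling (1.63). Nos2 had 356, 671, 745 and 307 in M/D-driven tumors and 204, 174 and 289.8 in AT3 tumors, and its difference of 0.91 ± 0.39 had an adjusted p of 0.0777. The call of Nos2 was lost without M/D-driven tumor 2 (0.75) or 3 (0.71) and without AT3 tumor 1 (0.85) or 2 (0.75), as well as in edgeR (0.88), in DESeq2 (0.81) and with upper-quartile scaling (0.20).

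Spp1 went the other way. Its normalized counts were 5583, 3962, 12832 and 49836 in untreated M/D-driven tumors and 83985, 51074 and 57017 in untreated AT3 tumors. All AT3 tumors were above all M/D-driven tumors, and the highest M/D-driven tumor came close to the lowest AT3 tumor. The difference was -2.76 ± 0.75 (adjusted p = 0.0149), that is 6.76-fold lower in M/D-driven tumors. Cd68 (-0.41 ± 0.24, adjusted p = 0.175) and Trem2 (-0.06 ± 0.33, adjusted p = 0.889) did not pass the test. Cd68 was called lower in M/D-driven tumors by DESeq2 (-0.59) and with upper-quartile scaling (-1.13). For Marco the difference was -0.04 ± 1.64, so that a several-fold difference in either direction is within the error.

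The difference between untreated models went with transcript length. Across the 18196 genes tested that have a transcript length (84.1%), the log2 difference was higher for longer transcripts (Spearman rho = 0.343, across genes, which are not independent replicates). Its median was -0.71 below 1.6 kb, 0.01 from 1.6 to 3 kb and 0.87 from 3 kb. All 5 macrophage genes of at least 3 kb were higher in M/D-driven tumors, as were 51.3% of all genes of that length. After removal of the trend of each tumor with transcript length and GC content, the differences of Adgre1 (1.64 ± 0.24), Csf1r (1.61 ± 0.20), Mrc1 (1.48 ± 0.28), Arg1 (2.24 ± 0.67) and Spp1 (-2.65 ± 0.70) still passed the test. Cd163 fell short (1.04 ± 0.51), and Nos2 changed sign (-0.26 ± 0.43). The removal also set all tumors to the same mean over genes. With it the median difference of the 18196 genes went from 0.35 to -0.35, and Nos2 lay above that median. Whether the trend arises in the tumors or in the handling of RNA was not tested.

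**Figure D2:**
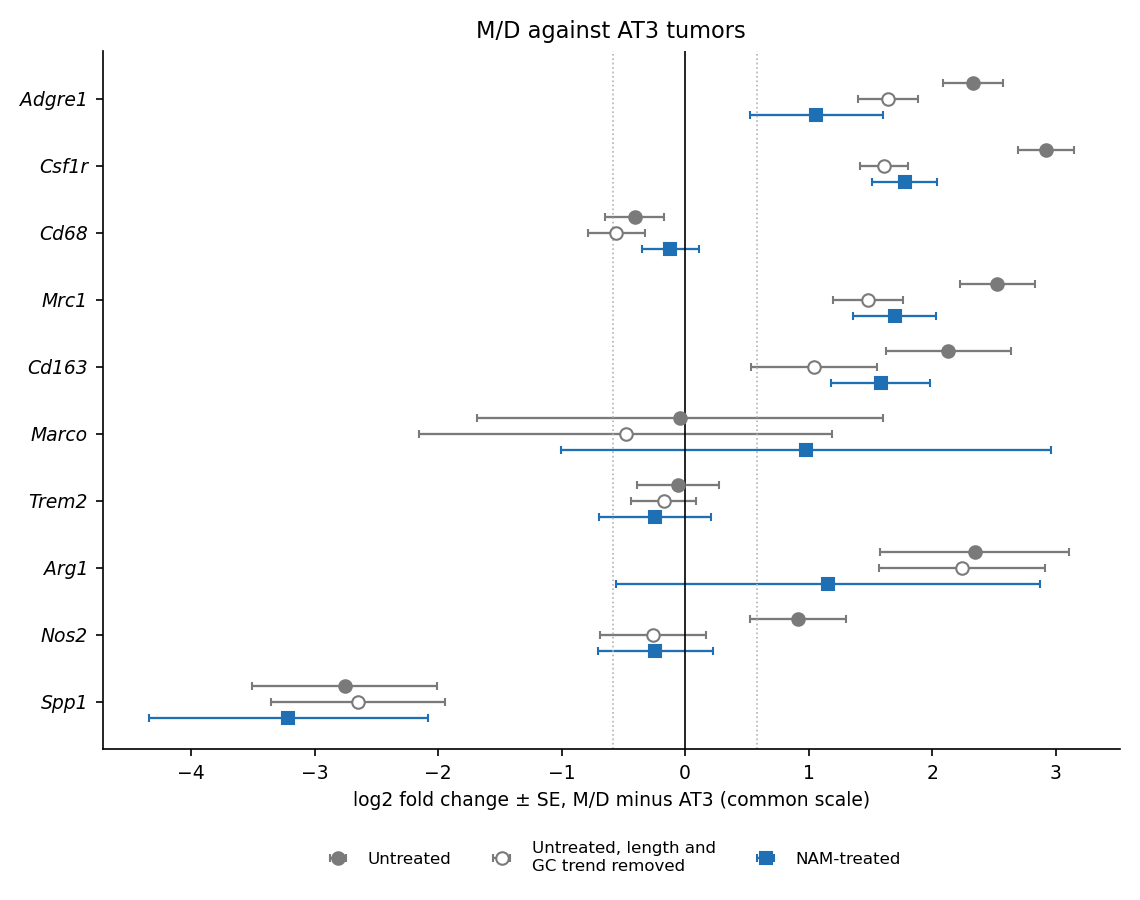
Log2 fold changes (M/D-driven minus AT3 tumors, common scale) with SE bars for the 10 macrophage genes, in untreated tumors with and without removal of the length and GC trend and in NAM-treated tumors. Dotted lines mark a fold change of 1.5. Csf1r is at 2.92, 1.61 and 1.78 and Spp1 at -2.76, -2.65 and -3.21.

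Other genes of the lineage followed in the same comparison. Of the 18 genes of the macrophage and monocyte core list, 13 were higher in untreated M/D-driven tumors, 1 was lower and 4 did not pass (median log2 difference 1.54, against 0.22 over all genes). Cybb, a subunit of the phagocyte oxidase, differed by 3.42 ± 0.30, Itgam (integrin CD11b) by 2.86 ± 0.33, Laptm5 by 2.53 ± 0.22 and Mpeg1, which encodes a pore-forming protein of phagosomes, by 2.03 ± 0.27. The 3 chains of complement C1q, all under 1.6 kb, were higher too, by 0.79 to 1.18. Of 12 genes of C1q and of resident-type macrophages, 8 were higher and 0 lower (4 and 0 without the length trend), including Gas6 (2.53 ± 0.27), a bridge to dying cells, and the transcription factor gene Maf (2.89 ± 0.35). Stab1 (1.92 ± 0.35) and Siglec1 (2.25 ± 0.48) were also higher, but their transcripts are 7.999 and 6.387 kb long, and 0.19 and 0.66 remained without the length trend. Of the 8 ligands of CSF1R and monocyte attractants, Csf1 (2.37 ± 0.30) and Il34 (2.13 ± 0.42) were higher in M/D-driven tumors and 1 was lower.

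Of 14 genes of alternative activation, 9 were higher in untreated M/D-driven tumors and 0 lower, including Mgl2 (3.95 ± 0.52), the receptor gene Il4ra (3.28 ± 0.33), Egr2 (2.88 ± 0.30) and Pparg (2.50 ± 0.34). The adipocyte regulator Pparg is no macrophage-specific gene, and 5 of 5 adipocyte markers were higher in M/D-driven tumors (median 6.71), the part of which in its value was not tested. Of the 14 genes of classical activation tested, Irf5 (1.81 ± 0.24) and Cd80 (2.45 ± 0.69) were among 4 that were higher, whereas Ptgs2 (prostaglandin synthase) was lower (-3.76 ± 0.53). The share of higher genes in the classical list was thus near the 33.4% of all genes, and its median was 0.47 (0.22 over all genes). Without the length trend 4 of its genes were higher and 4 lower, with a median of 0.04 (-0.35 over all genes). Of 16 genes linked to lipid handling downstream of TREM2, 9 were higher and 1 lower, with Cd36 at 3.72 ± 0.33, the signaling kinase gene Syk at 3.27 ± 0.30, Plin2 at 2.54 ± 0.25 and Itgax at 2.26 ± 0.23, while Trem2 itself did not pass. The part of adipocytes and other cells in the values of this list was not tested either. Of 6 other genes of arginine metabolism, the transporter genes Slc7a1 (1.64 ± 0.25) and Slc7a2 (2.23 ± 0.47) were among 3 that were higher but were at 0.05 and 0.87 and not called without the length trend, and Asl (-0.91 ± 0.19) and Ass1 (-1.25 ± 0.36) were lower. Of the 8 subunits of osteopontin receptors 6 were higher in M/D-driven tumors, including Itga4 (3.60 ± 0.38), Itgav (2.01 ± 0.29), Itga9 (1.93 ± 0.31) and Itgb5 (1.26 ± 0.25). Without the length trend 2 of the 8 were higher, Itga4 (2.35) and Itgav (0.74).

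Markers of other cells moved with the model as well. The pan-leukocyte gene Ptprc was higher in untreated M/D-driven tumors (2.4 on the log2 scale), and 7 of 8 T cell markers, 4 of 8 neutrophil markers tested and 4 of 6 dendritic cell markers were higher. So were 4 of 5 endothelial, 4 of 6 fibroblast and 5 of 9 epithelial markers, but only 1 of 6 B cell, 1 of 6 erythroid, 0 of 6 NK cell and 0 of 6 mast cell markers, beside 33.4% of all genes. The summed T cell markers were at 2589 to 7746 in M/D-driven and 501 to 2785 in AT3 tumors, and none was at 0. Their part in the results on Csf1r, Adgre1 and Mrc1 was not tested.

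In NAM-treated tumors 4 of the 10 genes were called between the models, with 25.5% of 21473 genes called (15.2% higher and 10.3% lower in M/D-driven tumors, 8.03% at an adjusted p limit of 0.05). Groups did not overlap for Csf1r, Mrc1 and Cd163, as for 27.9% of all genes. Csf1r (1.78 ± 0.26, adjusted p = 0.00984), Mrc1 (1.70 ± 0.33, adjusted p = 0.0252) and Cd163 (1.58 ± 0.40, adjusted p = 0.0519) were higher in M/D-driven tumors, and Spp1 was lower (-3.21 ± 1.13, adjusted p = 0.123). The call of Spp1 was lost without AT3 tumor 2 (-2.99) or 3 (-3.10) and in both tests on counts (-1.90 in edgeR, -1.88 in DESeq2). Adgre1 did not pass in limma (1.06 ± 0.54), but was called in edgeR (1.24), in DESeq2 (1.23) and on the deposited scale (1.43). Trem2 was called lower without M/D-driven tumor 2 (-0.66). Arg1 (1.15 ± 1.72), Nos2 (-0.24 ± 0.47), Cd68 (-0.12 ± 0.23) and Marco (0.98 ± 1.98) did not pass. Of the 18 core genes 10 were higher and 1 lower, with Lyz2, a lysozyme of macrophages with a transcript of 1.316 kb, at 1.71 ± 0.23.

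Without the library labelled M/D-driven tumor 1, 5 of the 10 genes were called between NAM-treated models in limma. Adgre1 (1.54 ± 0.31, adjusted p = 0.0179), Csf1r (1.88 ± 0.26, adjusted p = 0.00495), Mrc1 (1.77 ± 0.35, adjusted p = 0.0171) and Cd163 (1.36 ± 0.36, adjusted p = 0.0411) were higher, and Spp1 was lower (-2.87 ± 1.19, adjusted p = 0.138). Arg1 (2.46 ± 1.32), Nos2 (-0.24 ± 0.50), Cd68 (-0.22 ± 0.22), Trem2 (-0.06 ± 0.45) and Marco (-0.87 ± 1.08) did not pass, and for Marco the sign turned. Of the 18 core genes 13 were higher and 1 lower without that library, where 20.4% of all genes were higher, and Lyz2 was at 1.73 ± 0.27.

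The second comparison asks whether NAM changes macrophage transcripts in M/D-driven tumors. None of the 10 genes passed the test in limma, against 6.22% of the 21700 genes tested (3.03% higher and 3.19% lower), and 0 had an unadjusted p under 0.05. In edgeR and DESeq2 the count was 0 as well. None of the 10 had groups without overlap, as 4.43% of all genes did (2.43% higher), and 0.00461% of all genes had an adjusted p not above 0.05. The smallest adjusted p was 0.786. Without NAM-treated tumor 1, which is of another experiment, the count was again 0 in limma. With 4 tumors against 4, the exact permutation test cannot give a p under 0.0286.

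None of the lineage genes passed. Csf1r had 12354, 15144, 13396 and 21425 normalized counts in NAM-treated M/D-driven tumors, a difference of 0.02 ± 0.20 from untreated tumors (0.12 ± 0.19 without tumor 1). Adgre1 had 705, 2319, 2175 and 3514, with a difference of -0.09 ± 0.46. The lowest value is that of tumor 1, and without it the difference was 0.38 ± 0.25. Cd68, which encodes a lysosomal glycoprotein, had 5199.8, 4542, 3490.4 and 5932 in untreated and 6627, 5946, 4034 and 5102 in NAM-treated tumors (0.18 ± 0.23, or 0.08 ± 0.23 without tumor 1). Mrc1 had 6004, 8493, 8053 and 5313 in NAM-treated tumors (0.11 ± 0.29, or 0.17 ± 0.31 without tumor 1).

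The scavenger receptor genes Cd163 and Marco varied more. Cd163 had 1609, 1197, 805 and 664 in NAM-treated tumors (0.64 ± 0.51, or 0.41 ± 0.53 without tumor 1). It was called higher when untreated tumor 4, the highest untreated tumor, was left out (1.07). Marco, a receptor of resident macrophages that takes up particles, was nearly absent in some tumors, with 220.2, 4.35, 3.00 and 30.6 in untreated and 2702, 2.44, 58.0 and 17.6 in NAM-treated tumors (1.52 ± 2.09). A single tumor, NAM-treated tumor 1, held the high value, and without it the difference was -0.34 ± 1.59.

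Arg1, Spp1 and Trem2 were unevenly spread over M/D-driven tumors. Arg1 had 148, 56591, 1328 and 2095 normalized counts in NAM-treated tumors, a range of 383-fold, against 9.99-fold in untreated tumors. Spp1 had 1771, 29937, 4193 and 712. Trem2 had 1137, 1173, 1025 and 2162 in untreated and 643, 2175, 708 and 739.6 in NAM-treated tumors. For all 3 genes NAM-treated tumor 2 was the highest of its group and untreated tumor 4 the highest of the untreated group. The differences were -2.32 ± 1.64, -1.62 ± 1.20 and -0.50 ± 0.44, and for Arg1 the tests on counts gave -0.08 in both edgeR and DESeq2. Without NAM-treated tumor 1 they were -1.02 ± 1.39, -1.29 ± 1.33 and -0.33 ± 0.46. Without NAM-treated tumor 2 all 3 were called lower, with Arg1 at -3.88, Spp1 at -2.65 and Trem2 at -0.91. The call therefore turned on 1 tumor. Nos2 had 423, 849, 219 and 373 in NAM-treated tumors (-0.22 ± 0.47, or -0.23 ± 0.53 without tumor 1), and tumor 2 was again the highest.

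Neutrophil markers were highest in untreated tumors 3 and 4 and in NAM-treated tumor 2. Trem2 did not follow them in untreated tumor 3, where it was the lowest of the untreated group (1025 normalized counts). The summed level of S100a8 and S100a9 was 380584 and 282856 in untreated tumors 3 and 4 and 164067 in NAM-treated tumor 2, 27517 in untreated tumor 1, and 201 to 1298 in the 4 others. The 7 other neutrophil markers summed to 3142, 3232 and 4693 in the first 3 of these tumors and to 454 to 1424 in the rest. Of the 9 markers 0 were at 0 in either M/D-driven group. AT3 tumors had a sum of 683 to 1900. Among M/D-driven tumors the 3 with the highest sums are also the 3 with the highest Arg1 and Spp1. The same tumors had the highest summed epithelial markers, at 970402 in untreated tumor 4, 601755 in NAM-treated tumor 2 and 599722 in untreated tumor 3. The next was untreated tumor 2 at 395074. By the mean log2 level of these markers untreated tumor 2 was highest instead (15.1, against 14.4, 14.3 and 14.8). The part of neutrophils and of epithelial cells in the Arg1 and Spp1 values was not tested.

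**Figure D3:**
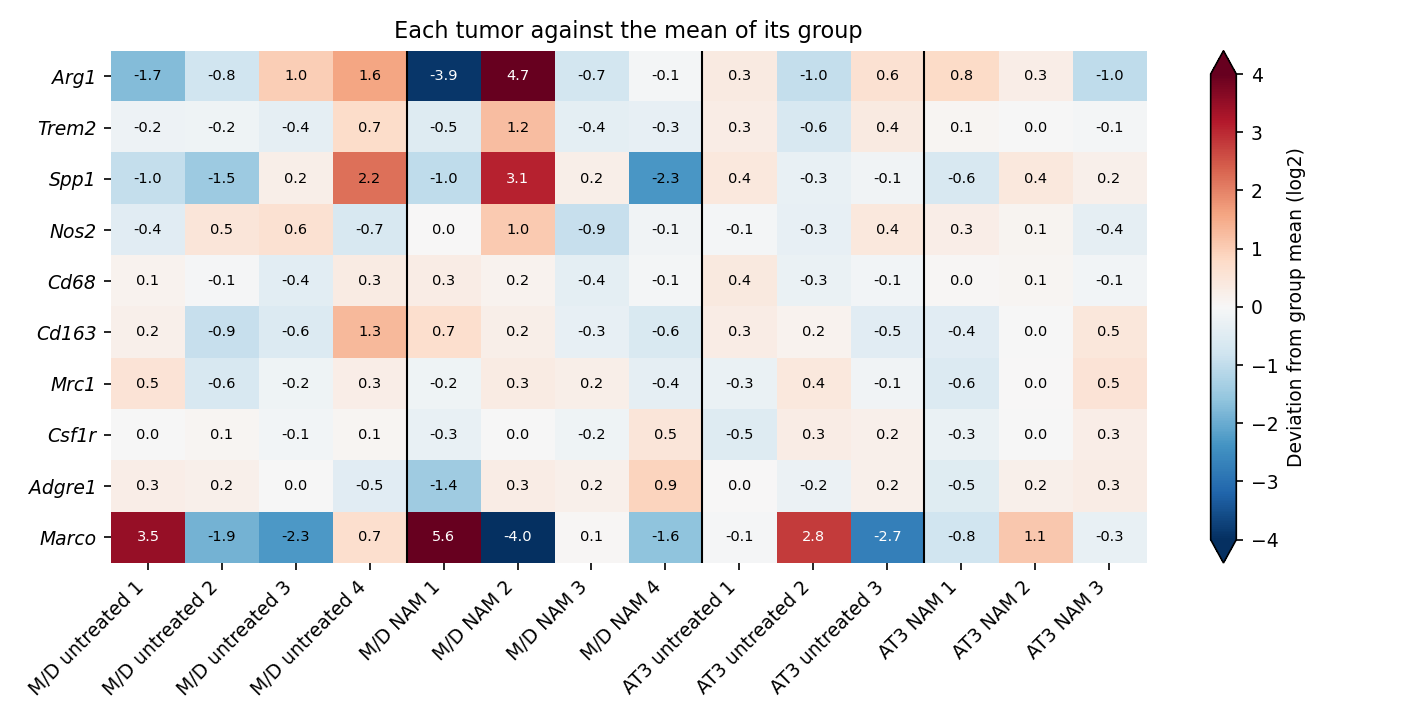
Deviation of each tumor from the mean of its group, in log2 units, for the 10 macrophage genes (red above, blue below the mean). Vertical lines separate the 4 groups. NAM-treated M/D-driven tumor 2 is the highest of its group for Arg1, Trem2 and Spp1 and the lowest for Marco.

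Few genes of the pathway lists passed in M/D-driven tumors. The counts were 0 of 18 for the macrophage and monocyte core, 0 of 12 for C1q and resident-type genes, 0 of 8 for CSF1R ligands and recruitment, 0 of 15 for classical activation, 0 of 6 for arginine metabolism and 0 of 8 for osteopontin receptors. In the core list Cd14 (-0.80 ± 0.75, or -0.04 ± 0.44 without tumor 1) and Fcgr1 (-0.66 ± 0.50, or -0.23 ± 0.38) had the widest differences. In the others these were Timd4 (1.99 ± 1.35, or 0.87 ± 1.11 without tumor 1), Csf2 (-1.12 ± 1.33, or -0.09 ± 1.13), Il1b (-1.90 ± 1.51, or -0.55 ± 1.13), Slc7a2 (-0.66 ± 0.86, or -0.10 ± 0.82), Itga4 (1.51 ± 0.99, or 0.50 ± 0.55) and Il12a (2.10 ± 1.65). Tumor 1 held most of the NAM-treated signal of 3 of them, with 890 normalized counts of Timd4 (21.9 to 72.2 in the 3 others), 6758 of Itga4 (175 to 860.0) and 1564 of Il12a (3.68 to 14.4), and without it Il12a was too low to be tested. Alternative activation had 1 gene that rose, Pparg (578 ± 166 to 1063 ± 370 normalized counts, SD, n = 4 each, 0.86 ± 0.31), and 2 that fell, Klf4 (-2.70) and Ccl17 (-2.57). Ctsd, a lysosomal protease, fell (-0.98) in the list of lipid handling. Without tumor 1 Pparg (0.65) and Ctsd (-0.82) were still called, Klf4 (-2.36) and Ccl17 (-1.83) were not, and Slc7a1 was called lower (-0.70) in the list of arginine metabolism, with 0 genes called in the 5 other lists that had none, where 2.85% of all genes were called higher and 2.33% lower. Adipocyte markers stood above 0 in 5 of 5 cases in the same comparison (median 0.82, with 1 called, or 2 without the length trend), and their part in the value of Pparg was not tested. Klf4, Ccl17, Ctsd and Slc7a1 were named after their values were seen. The adjusted p of each gene named in these lists was at least 0.734 in the fit of all 8 tumors.

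The third comparison asks the same of AT3 tumors, where more of the transcriptome moved. In limma, 23.1% of the 19281 genes tested were called (12.2% higher and 10.9% lower), beside 7 of the 10 macrophage genes. Adgre1, Csf1r, Cd163, Mrc1 and Nos2 rose with NAM, Arg1 and Spp1 fell, and Cd68, Trem2 and Marco did not pass. The adjusted p was 0.166 to 0.191 for the 7 genes in limma, so that 0 of the 10 passed a limit of 0.05 (0.00519% of all genes did), against 4 in DESeq2 (Adgre1, Csf1r, Cd163 and Spp1). In limma with the replicate numbers as a block 3 of the 10 passed, as did 1296 of the 19281 genes. With 3 tumors against 3, the exact permutation test cannot give a p under 0.1.

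Adgre1 had 341, 288 and 392 normalized counts in untreated and 496, 797 and 865 in NAM-treated AT3 tumors, and the groups did not overlap, as for 22.6% of all genes (11.7% higher and 11% lower). Its mean rose from 340.1 ± 51.6 to 719 ± 196 (SD, n = 3 each), a difference of 1.05 ± 0.28, or 2.07-fold. Csf1r had 1188, 2077 and 1929 in untreated and 2864, 3444 and 4183 in NAM-treated tumors (1.04 ± 0.27), again without overlap. The log2 ratio of Csf1r to Adgre1 within a tumor was 2.31 ± 0.52 without and 2.30 ± 0.21 with NAM (mean ± SD, n = 3 each).

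Both scavenger receptor genes taken as markers of alternative activation rose. Cd163 had 154, 139 and 91.2 in untreated and 191, 261 and 357 in NAM-treated tumors (1.06 ± 0.34). Mrc1 had 769.5, 1243 and 840.0 in untreated and 1115, 1657 and 2381 in NAM-treated tumors, with overlap of 1 tumor of each group (0.82 ± 0.32). Marco had 15.9, 122 and 1.63 in untreated and 12.2, 47.0 and 17.3 in NAM-treated tumors (0.36 ± 1.23), and its 2 to 120 reads per untreated tumor leave a several-fold change undetectable.

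The arginine enzymes moved apart in AT3 tumors. Nos2 rose from 204, 174 and 289.8 to 457, 409 and 294 (0.80 ± 0.30), with the lowest NAM-treated tumor just above the highest untreated tumor. Arg1 fell from 2330.3, 941 and 2796 to 1309.8, 919 and 377 (-1.25 ± 0.52), with overlapping groups. The call of Nos2 was lost without untreated tumor 1 (0.76) or 2 (0.64) and without NAM-treated tumor 1 (0.67) or 2 (0.75), and that of Arg1 without untreated tumor 1 (-1.08) or 3 (-0.95) and without NAM-treated tumor 3 (-0.74). Mrc1 lost its call without untreated tumor 1 (0.68) or 3 (0.74) and without NAM-treated tumor 2 (0.81) or 3 (0.55), and Cd163 without NAM-treated tumor 3 (0.83).

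Spp1 fell from 83985, 51074 and 57017 to 16477, 34120.4 and 29612 normalized counts, and the groups did not overlap. The mean went from 64025 ± 17539 to 26736 ± 9167, a difference of -1.29 ± 0.32, or 2.45-fold lower. Spp1 was the most abundant of the 10 transcripts in all 6 AT3 tumors. Cd68 went from 7013, 4367 and 4865 to 4649, 4755 and 4135 (-0.23 ± 0.23) and Trem2 from 1417, 745 and 1479.8 to 893, 848 and 815 (-0.45 ± 0.29). Trem2 was called lower without untreated tumor 2 (-0.77).

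**Figure D4:**
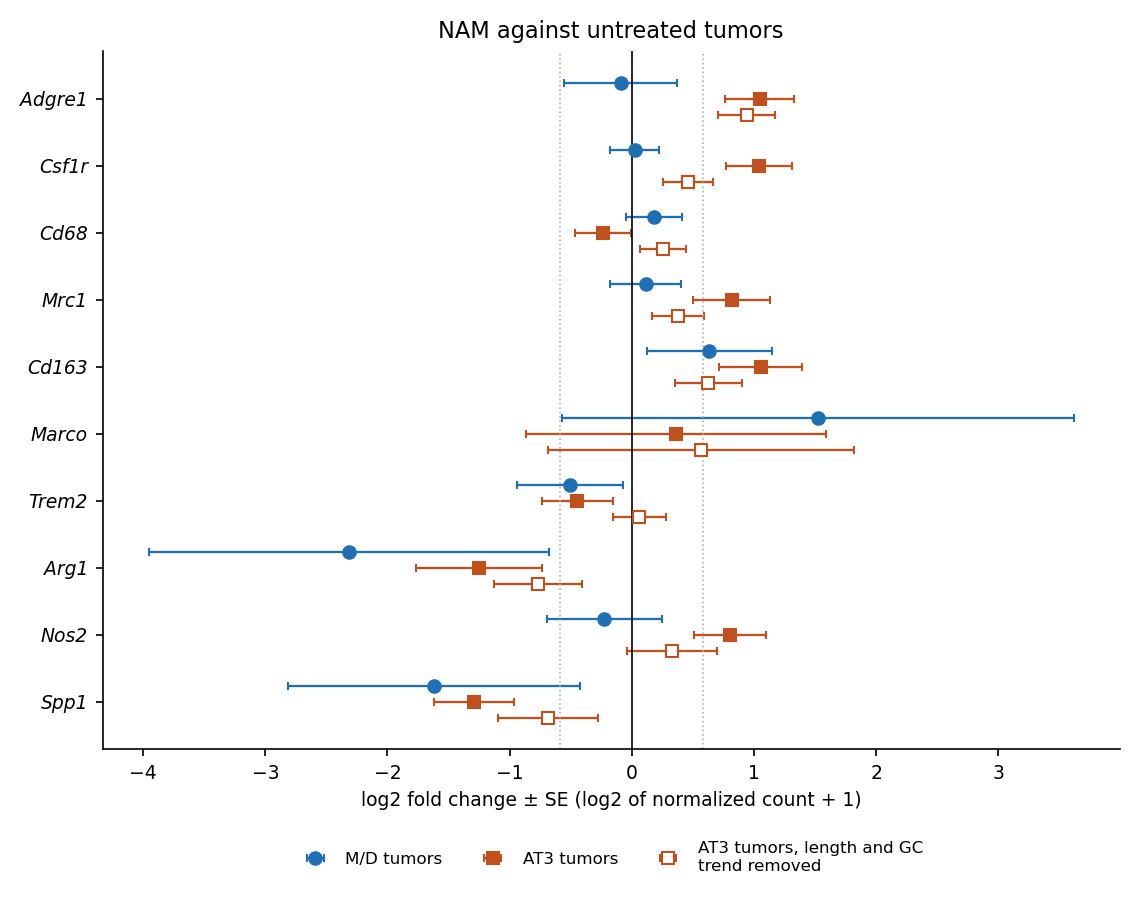
Log2 fold changes of NAM-treated against untreated tumors with SE bars for the 10 macrophage genes, in M/D-driven tumors, in AT3 tumors, and in AT3 tumors after removal of the length and GC trend. Dotted lines mark a fold change of 1.5. Adgre1 is at -0.09, 1.05 and 0.94, and Csf1r at 0.02, 1.04 and 0.46.

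The direction of these changes followed transcript length. All 5 genes of at least 3 kb rose, both genes that fell are under 1.6 kb, and Cd68 and Trem2, also under 1.6 kb, had negative values. Over the 16429 genes tested that have a length (85.2%), the change with NAM rose with length (Spearman rho = 0.617, across genes), with a median of -0.62 under 1.6 kb, -0.14 from 1.6 to 3 kb and 0.43 from 3 kb. Of all genes of at least 3 kb, 27.1% were called higher, and of those under 1.6 kb 31.8% were called lower. In M/D-driven tumors the same correlation was -0.049. After removal of the trend, Adgre1 (0.94 ± 0.23) and Cd163 (0.63 ± 0.28) were still called. Csf1r (0.46 ± 0.21), Mrc1 (0.38 ± 0.21), Nos2 (0.33 ± 0.37), Arg1 (-0.77 ± 0.36) and Spp1 (-0.68 ± 0.41) were not, whereas Cd68 (0.25 ± 0.19) and Trem2 (0.06 ± 0.22) turned to positive values below the threshold.

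The trend can be followed tumor by tumor as the median of 7459 transcripts of at least 3 kb minus that of 2732 transcripts under 1.6 kb, each relative to the mean of all tumors. This difference was -1.43, -0.52 and -1.42 on the log2 scale in untreated AT3 tumors and -0.70, 0.18 and 0.38 in NAM-treated AT3 tumors, against -0.04 to 0.81 in M/D-driven tumors. Between untreated and NAM-treated AT3 tumors, untreated tumor 2 and NAM-treated tumor 1 are thus the closest pair in this respect. Between these 2 tumors Adgre1 was 288 against 496, Csf1r 2077 against 2864, Cd163 139 against 191, Nos2 174 against 457 and Spp1 51074 against 16477, whereas Mrc1 was 1243 against 1115 and Arg1 941 against 1309.8. These are single tumors and give no test.

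**Figure D5:**
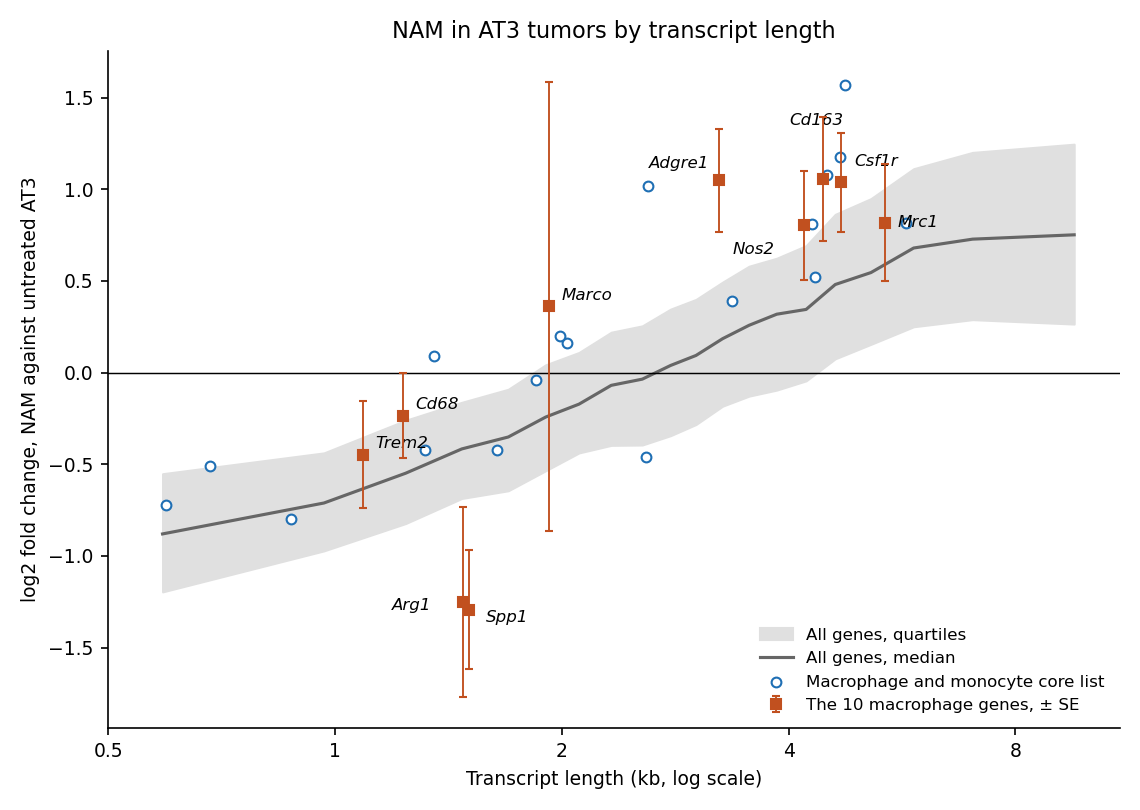
Log2 fold change of NAM-treated against untreated AT3 tumors by transcript length (kb, log scale). Squares are the 10 macrophage genes with SE bars, open circles the 18 macrophage and monocyte core genes, and the line and band the median and quartiles of all genes in bins of equal size. Adgre1 (1.05 at 3.238 kb) lies above the band, and Arg1 and Spp1 (-1.25 and -1.29) lie below it.

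The core list showed the same division. In AT3 tumors 6 of its 18 genes rose and 0 fell (median 0.18, against -0.05 over all genes). Of its 7 genes of at least 3 kb 5 rose, of its 6 genes from 1.6 to 3 kb 1 rose, and of its 5 genes under 1.6 kb 0 rose. Cybb went from 233 ± 101 to 667 ± 158 normalized counts (1.57 ± 0.34), Itgam from 518 ± 112 to 1214 ± 448 (1.18 ± 0.32), Laptm5 from 1713 ± 395 to 3427 ± 425 (1.02 ± 0.24) and Mertk, a receptor for dying cells, from 81.6 ± 12.6 to 144 ± 18.7 (0.81 ± 0.30). Without the length trend Cybb (1.25), Laptm5 (0.98) and Itgam (0.68) were still called and Mertk (0.41) was not. The short genes of the C1q chains were at -0.27 to -0.09 and did not pass.

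Among the other lists, changes in AT3 tumors were mixed in sign. For C1q and resident-type genes 1 of 12 rose, Siglec1 (1.24 ± 0.49, 0.44 without the length trend), and Timd4 did not pass (1.39 ± 0.69). For CSF1R ligands and recruitment 1 rose and 1 fell, Csf1 (0.81) and Ccl8 (-1.23 ± 0.54), and Ccl12 did not pass (-1.15 ± 0.56). Alternative activation had 2 genes that rose, Il4ra (349 ± 30.6 to 715 ± 176, 1.00 ± 0.26) and Stat6 (0.63), and 0 that fell. Without the length trend Il4ra was at 0.33 and not called, and 3 genes of this list were called higher and 0 lower. Classical activation had 0 of 14 in either direction (Il12b 2.09 ± 1.02, Il6 -0.76 ± 0.51). Csf1 and Stat6 were named after their values were seen.

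Of 16 genes of lipid handling, 3 rose, namely Syk (1.17 ± 0.29), Itgax (0.86 ± 0.27) and Lipa (0.81), and 4 fell, including Fabp5 (68595 ± 10309 to 32144 ± 3334, -1.09 ± 0.22) and Lgals3 (-1.17 ± 0.33). Without the length trend 1 of the 16 genes was called higher and 2 lower. Lgals3 (-0.77) then stayed past the test, whereas Fabp5 (-0.34), Syk (0.49) and Itgax (0.44) did not. For arginine metabolism the cationic amino acid transporter genes Slc7a1 (401 ± 94.9 to 1714 ± 1020.3, 1.86 ± 0.51) and Slc7a2 (178 ± 44.2 to 452 ± 203, 1.25 ± 0.39) rose, with and without the trend, and Arg2, which encodes the mitochondrial arginase, fell (-1.10). Of the 8 osteopontin receptor subunits 4 rose and 0 fell, with all 8 above 0 (0.36 to 1.77, median 0.78). Among those that rose were Itga4 (1.77 ± 0.41), which binds osteopontin with a beta1 partner, and Itga9 (0.95 ± 0.33). Without the trend 2 of the 8 were called higher, and their median was 0.17 (0.01 over all genes). Itga4 (1.14) was then still called and Itga9 (0.15) was not. Lipa and Arg2 were named after their values were seen.

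Other cell markers moved with NAM in AT3 tumors. Ptprc rose without overlap of the groups (0.71, or 0.34 and not called without the length trend), and 4 of 5 endothelial markers rose (summed level 4081 to 4985 in untreated and 5803 to 8865 in NAM-treated tumors). For T cells 0 of 8, for neutrophils 0 of 6 and for dendritic cells 0 of 6 markers tested were called. Of 9 epithelial markers 1 was called higher and 3 lower (median -0.53), and of 5 B cell markers tested 2 were lower without overlap of the groups, beside 10.9% of all genes called lower. The only neutrophil marker at 0 was Ngp, in NAM-treated tumors. The part of other cells in the changes of Adgre1 and Csf1r was not tested.

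The fourth comparison tested whether the effect of NAM itself differs between the models. It uses the same tumors as the preceding comparisons. In limma, 14.9% of 22710 genes were called (6.97% higher and 7.9% lower in M/D-driven tumors), and 1 of the 10 macrophage genes. For Csf1r the log2 change with NAM was 1.01 ± 0.34 less in M/D-driven than in AT3 tumors (adjusted p = 0.231). The difference was -0.91 without NAM-treated M/D-driven tumor 1, where it was still called. It lost the call at -0.67 with upper-quartile scaling and at -0.32 after removal of the length and GC trend. The differences were -1.14 ± 0.61 for Adgre1, -1.03 ± 0.63 for Nos2, -0.70 ± 0.46 for Mrc1, -0.42 ± 0.69 for Cd163, -1.07 ± 2.05 for Arg1 and -0.33 ± 1.48 for Spp1, none of which passed. Without NAM-treated M/D-driven tumor 1 they were -0.67 ± 0.39 for Adgre1, -1.04 ± 0.65 for Nos2, -0.64 ± 0.47 for Mrc1, -0.65 ± 0.68 for Cd163, 0.23 ± 1.65 for Arg1 and 0.01 ± 1.52 for Spp1, again not called. Adgre1 was called without NAM-treated M/D-driven tumor 4 (-1.44) and Nos2 without NAM-treated M/D-driven tumor 2 (-1.37). Csf1r was thus the only gene called among the 10, a count no higher than the 14.9% of all genes called. Of all genes of at least 3 kb, as Csf1r is, 16.9% were called lower in this comparison.

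Within groups, some of the genes deviated together from tumor to tumor. Correlations are those of deviations from group means over all 14 tumors, which share their library with both genes, and are given as a description. Arg1 and Trem2 correlated at r = 0.82, Trem2 and Spp1 at 0.78 and Arg1 and Spp1 at 0.71 (0.84, 0.76 and 0.76 without NAM-treated M/D-driven tumor 1). Over the 8 M/D-driven tumors these were 0.85, 0.85 and 0.76, and over the 6 AT3 tumors 0.75, 0.27 and -0.15, so that the values with Spp1 came from M/D-driven tumors. Marco ran against Arg1 (-0.78, or -0.60 without that tumor). Adgre1 and Csf1r correlated at 0.54 (0.46) and Mrc1 and Cd163 at 0.59 (0.70), while the correlation of Adgre1 with Marco (-0.60) rested on that tumor (-0.07 without it). The mean of the 16 lipid handling genes correlated with Trem2 at 0.91, with Arg1 at 0.86 and with Spp1 at 0.79, as opposed to 0.13 for Adgre1 and -0.14 for Csf1r. Mrc1 correlated with the mean of the fibroblast markers at 0.81 and with that of the core list at -0.19. The part of fibroblasts in the values of Mrc1 was not tested.

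Among 15414 genes, those whose deviations were most like each macrophage gene were listed by the same measure. For Arg1 these were Nupr1 (r = 0.97), Il1rn (0.97) and Srxn1 (0.96). For Spp1 they were Sgk1 (0.97), Emp1 (0.95) and Usf2 (0.95), and for Trem2 Anxa7 (0.95), Ctsb (0.95) and Zkscan6 (0.95). Ctsb, a lysosomal protease, is also in the list of lipid handling. Mrc1 was followed by Mrc2 (0.94), a related endocytic receptor gene, Cnnm4 (0.92) and the collagen gene Col6a3 (0.91). All of these stayed at 0.91 or more without NAM-treated M/D-driven tumor 1.

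For the other genes the nearest profiles were Sema3c (0.96), Pdgfc (0.95) and Tor1aip2 (0.95) for Adgre1, which dropped to 0.89, 0.85 and 0.87 without that tumor. Csf1r was nearest to Ankrd34a (0.89), Slc8a1 (0.89) and Nr6a1 (0.88), Cd68 to the shared row of Rab4b and Mia (0.90), Ensa (0.90) and Rtfdc1 (0.83), and Cd163 to Dolpp1 (0.92), the shared row of Hoxb7 and Hoxb8 (0.92) and Rell2 (0.91). Nos2 was nearest to Gm42067 (0.84), Metap1d (0.83) and Saa2 (0.82), and Marco to the row of Fpgs (0.93), Cad (0.90) and Myc (0.89). None of the 10 macrophage genes was among the nearest 3 of another.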

How the data were processed

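Whole-tumor RNA (RNAlater, RNeasy, TruSeq polyA libraries, paired ends) was aligned by the authors with STAR 2.4.0 on mm10 and counted on constitutive regions of Mouse FAST DB genes. The deposited values are a normalized signal per gene, that is counts divided by DESeq2 size factors, with the models scaled apart. Every value was a whole multiple of a step per tumor (100% within 0.01), which gave back 40936868 to 84178009 whole reads, and 0 columns were left unmapped. Depth limits precision mainly for Marco, and intervals are the spread between tumors.

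limma 3.58.1 (R 4.3.3) with a mean-variance trend was fitted to log2(normalized count + 1) over genes that averaged 10 or more in 1 or more groups. Fold changes on this scale understate those of low genes. Calls use p of at most 0.05 and a fold of at least 1.5, with Benjamini-Hochberg adjusted p over all genes. Models were compared on reads rescaled over all tumors by TMM (edgeR 4.0.16). Transcript length and GC content came from the longest protein-coding GENCODE vM21 transcript, and their trend was removed by a spline with 4 degrees of freedom. The fit held an intercept, so that it also set the tumors compared to the same mean over genes. Exact permutation tests were two-sided. Fits were tested on simulated data.

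The 10 genes and all lists were chosen with earlier results of these data known. The genes named are the 10 members, from each pathway list up to 4 called genes without overlap by lowest p (otherwise the 2 with the largest change), and the 3 genes most correlated with each member. Alternatives were pseudocounts of 0.5 and 5, other filters, other scalings, edgeR and DESeq2 1.42.0 on recovered reads, a replicate block, removal of the length trend, a joint fit and each tumor left out. Removal of the trend between models, correlations and lists without NAM-treated M/D-driven tumor 1, and Dixon's test on the log2 scale were added after the data were seen. Python 3.11.15, pandas 2.3.3, numpy 2.4.6 and matplotlib 3.10.9 were used.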

Additional observations from a re-analysis of the deposited data

Results flagged for a closer look

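Of 20 sets of 4 M/D-driven tumors tested (10 genes, untreated and NAM-treated), 6 had a tumor set far apart from the 3 others by Dixon's test on normalized counts, where chance gives about 1 in 20 among independent sets. On the log2 scale 1 of these 6 passed, Trem2 in NAM-treated tumor 2, and the 3 genes high in that tumor are correlated with each other. NAM-treated tumor 2 was the high tumor for Arg1 (56591 normalized counts), Trem2 (2175) and Spp1 (29937). Untreated tumor 4 was high for Trem2 (2162). Marco was high in untreated tumor 1 (220.2) and in NAM-treated tumor 1 (2702), the tumor of experiment 2 with few epithelial and many precursor B cell transcripts. No explanation was weighed for these values.

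The change of Csf1r with NAM differed between the models in the interaction test (-1.01 on the log2 scale, M/D-driven minus AT3 tumors, limma), by the rule that called 14.9% of all genes, with an adjusted p of 0.231. It was not called without the length and GC trend (-0.32) or with upper-quartile scaling (-0.67). Csf1r was higher in 3 of 3 NAM-treated AT3 tumors than in every untreated AT3 tumor, and in 1 of 4 NAM-treated M/D-driven tumors than in every untreated M/D-driven tumor.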

How the results depend on the processing

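Of the values of single macrophage genes under other settings, 883 stayed on their side of the threshold and within their error. Some of these changed sign, as for Marco with NAM in M/D-driven tumors (1.52, or -0.34 without NAM-treated tumor 1). Of the rest, 22 moved by more than their error, 45 lost and 14 gained a call, and 1 reversed. This was Nos2 between untreated models, at -0.26 without the length and GC trend, where the median of all genes was -0.35. Without that trend 2394 genes (4458 in the main fit) and 2 macrophage genes (7) were called with NAM in AT3 tumors, and 1897 (3377) and 0 (1) in the interaction. In AT3 tumors 3 macrophage genes were called in a fit over all 14 tumors. At an adjusted p of at most 0.05 the counts of the main fit were 0 in AT3 tumors, 0 in the interaction and 2 (4) between NAM-treated models.

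In M/D-driven tumors 1350 genes were called with NAM, 2180 without a filter, 859 with a minimum group mean of 50, 2092 with DESeq2 and 2132 in a fit over all 14 tumors. With each tumor left out in turn the count was 784 to 2712 in M/D-driven tumors (0 to 3 macrophage genes), 1618 to 6765 in AT3 tumors (4 to 7) and 1838 to 4574 in the interaction (1 to 2). The lowest and highest gene counts came without untreated tumor 4 and NAM-treated tumor 2 in M/D-driven tumors, without NAM-treated tumor 3 and untreated tumor 2 in AT3 tumors, and without NAM-treated AT3 tumors 3 and 1 in the interaction. Also by over 1.5 times, the count became 856 without untreated M/D-driven tumor 1, and 2267, 2637 and 1861 without AT3 untreated tumors 1 and 3 and NAM-treated tumor 2, and 2018 in the interaction without the latter.

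Rescaling by the upper quartile moved the median of all genes to -0.56 (0.22 by TMM) between untreated models, to -0.17 (0.09) between NAM-treated models, to -0.26 (-0.05) with NAM in AT3 tumors, to 0.12 (0.01) in M/D-driven tumors and to 0.39 (0.04) in the interaction. The split of higher against lower genes became 4478 to 8710 (7238 to 4938), 2546 to 3546 (3258 to 2217), 1459 to 3492 (2358 to 2100), 915 to 561 (658 to 692) and 3230 to 942 (1582 to 1795). The number of macrophage genes called in the interaction became 0, and Cd68 was called lower in untreated M/D-driven tumors (-1.13). On the deposited scale the splits between models were 8402 to 3827 and 4837 to 1071. The cause of these shifts was not tested.

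Same-numbered tumors of the 2 groups deviated together at r = 0.11, -0.44, -0.22 and -0.19 in M/D-driven and 0.13, 0.26 and -0.16 in AT3 tumors. So few pairs cannot decide whether the numbers pair the tumors. With the replicate block, 1001 genes were called in M/D-driven and 5082 in AT3 tumors. In AT3 tumors 1296 genes (1 in the main fit) and 3 macrophage genes (0) then had an adjusted p of at most 0.05 in limma. With the replicate block and the length trend removed the genes called were 741, 2472 and, in the interaction, 1497, with 2 macrophage genes in AT3 tumors and 0 in the interaction.

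DESeq2 gave no p for Marco in 3 comparisons and for Arg1 in 1. Spread between 3 or 4 tumors, more than depth, limits these results.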
